A study of Mus musculus with 2 samples.

Results

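The genes described here are 40 genes of the cell division cycle, taken by symbol from a list, which was drawn up with earlier results of these data known: 19 genes whose messages peak in S phase, 19 that peak in G2 and M phase, and the D cyclins Ccnd1 and Ccnd2. All 40 were found once among the 31053 genes of the feature lists. They were measured by single-cell RNA sequencing, with 10x Genomics Chromium v3 chemistry, in cells of the mouse embryonic stem cell line MM13 that had been directed toward dorsal spinal neurons for 9 days. One culture was grown under retinoic acid (RA), which steers neural cells to a spinal fate, and the other under RA with bone morphogenetic protein 4 (RA+BMP4), a ligand of the family that patterns the dorsal neural tube. Both cultures carry the same genotype, the labels give no further treatment for either, and MM13 is a single line.

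With 1 library per condition there is no replicate error and no test between conditions, and each value below describes these 2 libraries. Intervals in square brackets are 95% and cover counting error only. In RA, 5900 of 9704 barcodes were kept as cells, with a median of 14196 unique molecular identifiers (UMIs, 122110565 in the library). In RA+BMP4, 8352 of 13121 barcodes were kept, with a median of 10465 (115268932 in the library). The libraries shared 43 barcodes, 21 of them among kept cells.

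A dividing cell copies its DNA in S phase and separates the copies in mitosis. D cyclins with the kinases Cdk4 and Cdk6 phosphorylate the retinoblastoma proteins, which frees E2F factors to switch on the S phase genes, and the B-Myb, FoxM1 and MuvB proteins then switch on the G2 and M genes. In the neural tube, progenitors cycle beside the lumen, and a cell that becomes a neuron leaves the cycle for good, with CDK inhibitors such as Cdkn1c (p57) taking part in the arrest.

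The promoters of the members were searched for the letters that these factors are known to bind, and 2 promoters of each list are shown as examples that hold E2F letters (Mcm5, Mcm6) or CHR and CCAAT letters (Top2a, Cdc20). Promoters were the 250 bases before each annotated start in RefSeq (GRCm38.p6), and 32 of the 40 members had an entry. They comprise 16 S genes with 19 promoters and 16 G2 and M genes with 16. Capitals mark every match, on either strand, to the E2F letters TTTCCCGC, TTTGGCGC or TTTCGCGC, to the cell cycle homology region (CHR) TTTGAA, or to the CCAAT box. Mcm5 and Mcm6 encode subunits of the replicative helicase, Top2a the topoisomerase that untangles sister chromatids, and Cdc20 an activator of the ubiquitin ligase that starts anaphase.
Mcm5, chr8:75109259-75109508, plus strand: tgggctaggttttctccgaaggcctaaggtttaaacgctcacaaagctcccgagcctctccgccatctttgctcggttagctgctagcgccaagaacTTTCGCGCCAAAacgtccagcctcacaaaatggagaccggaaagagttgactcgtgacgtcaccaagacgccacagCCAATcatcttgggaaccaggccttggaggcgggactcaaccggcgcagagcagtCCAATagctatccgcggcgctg
Mcm6, chr1:128359706-128359955, minus strand: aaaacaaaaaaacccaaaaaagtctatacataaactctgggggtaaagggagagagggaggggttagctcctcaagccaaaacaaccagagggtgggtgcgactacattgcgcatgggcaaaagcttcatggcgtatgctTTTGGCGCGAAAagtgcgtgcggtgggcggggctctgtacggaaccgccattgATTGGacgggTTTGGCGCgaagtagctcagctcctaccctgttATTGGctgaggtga
Top2a, chr11:99024190-99024439, minus strand: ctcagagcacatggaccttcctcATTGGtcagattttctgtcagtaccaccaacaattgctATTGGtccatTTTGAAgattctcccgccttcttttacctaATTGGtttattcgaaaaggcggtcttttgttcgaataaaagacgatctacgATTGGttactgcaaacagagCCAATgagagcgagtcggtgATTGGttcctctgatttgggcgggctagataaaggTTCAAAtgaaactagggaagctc
Cdc20, chr4:118437344-118437593, minus strand: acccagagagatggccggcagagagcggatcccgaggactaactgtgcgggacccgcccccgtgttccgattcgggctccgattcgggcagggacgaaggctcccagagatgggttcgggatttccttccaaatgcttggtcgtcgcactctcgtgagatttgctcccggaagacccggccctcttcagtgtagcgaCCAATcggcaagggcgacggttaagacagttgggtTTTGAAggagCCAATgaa

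E2F letters stood at 153 and 149 bases before the start in Mcm5, as overlapping matches, and at 110, 106 and 47 bases before it in Mcm6. CHR letters stood at 179 and 23 bases before the start in Top2a and at 18 in Cdc20. An E2F match was found in 36.8% of S promoters, 6.25% of G2 and M promoters (Cdk1 alone) and 1.53% of all 32851 promoters of this length. A CHR match was found in 10.5% of S promoters, 50.0% of G2 and M promoters and 16.0% of all promoters. The CCAAT box was found in 68.4%, 87.5% and 33.8%. CHR and CCAAT stood together in 50.0% of G2 and M promoters, in 5.26% of S promoters and in 5.55% of all. No E2F, CHR and CCAAT match overlapped a match to another of these motifs in a member's promoter. A match describes the letters, not a bound site, and neither D cyclin had an entry.

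Cells were grouped by clustering that left out the listed cell cycle genes, to limit the part of phase in forming the classes. Also left out were 1760 further genes whose levels followed the balance of G2 and M over S members among cells rich in members. Mitotic genes outside these lists remained, such as Pimreg, a leading gene of cluster 4. Of 23 clusters, 18 classes or single clusters resulted, and a class was called by its markers. The progenitor-like class held 716 RA and 318 RA+BMP4 cells and was led by Hopx, Wnt7b and Hes5. The roof plate-like class held 351 and 2489 cells in clusters 0 and 4, led by Pla2g7, Rspo3, Wnt1 and Fndc5. The newborn neuron-like class held 350 and 376 cells and was led by Neurog2 and Neurod4. The neuron-like classes, dI1, dI2, dI4 with dILA, dI5 with dILB and a pan-neuronal-like class, held 2400 and 3040 cells together. Cluster 14, whose leading genes include Smoc1, Tlx1 and Gadd45g, held 405 and 61 cells and stayed unnamed, as did cluster 1, led by Cp and Colec12, with 703 and 431 cells. The median depth differed between classes, with 53772 RA and 37490 RA+BMP4 UMIs in pluripotent-like cells, 12391 and 9389 in neuron-like cells, 4299 and 3550 in the unnamed cluster 15 and 2833 and 2119 in the unnamed cluster 17. Clusters 15 and 17 lost most of their cells to thinning, and their shares are not given.

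A cell was counted as cycling if, after thinning to 5000 UMIs, it held UMIs of at least 3 different S members or at least 3 different G2 and M members. By this count the cycling share was 50.2% [48.9 to 51.5] in RA and 46.1% [45.0 to 47.2] in RA+BMP4. Many cells lay near this limit: 724 RA and 1059 RA+BMP4 cells stood at exactly 3 members, and 1353 and 2048 just under it. Neuron-like cells reached 21.0% and 19.7%, which was read as the background of this count, on the presumption that neurons lack these genes. Shares are therefore also given at a limit of 5 members, which 167 and 233 cells met exactly, and those by class mostly at that limit. At 5 members the shares were 32.3% [31.1 to 33.5] in RA and 26.7% [25.7 to 27.7] in RA+BMP4, and 1.47% and 1.21% in neuron-like cells. Without thinning, the limit of 3 members gave 83.5% and 71.7%. Cells shallower than 5000 UMIs, 187 in RA and 573 in RA+BMP4, are not in the thinned shares.

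The ratio of the shares, RA+BMP4 over RA, was 0.919 at 3 members and 0.826 at 5. Given the class makeup of the RA culture, it was 0.943 and 0.921, and given that of the RA+BMP4 culture, 0.940 and 0.908, over 14 classes with cells in both. The difference between the libraries was thus smaller at an equal makeup of these classes at both limits. Roof plate-like cells counted as 1 class here, although the libraries differed in how these cells were split between clusters 0 and 4. With each library clustered alone, the ratio at the RA makeup was 0.823 at 3 members, so there the difference was not smaller. At 10000 UMIs per cell the ratio without regard to makeup was 1.03, with RA+BMP4 on the higher side. That depth left out every cell shallower than 10000 UMIs. As the median depth was 14196 UMIs in RA and 10465 in RA+BMP4, this ratio covers a different set of cells.

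**Figure D1:**
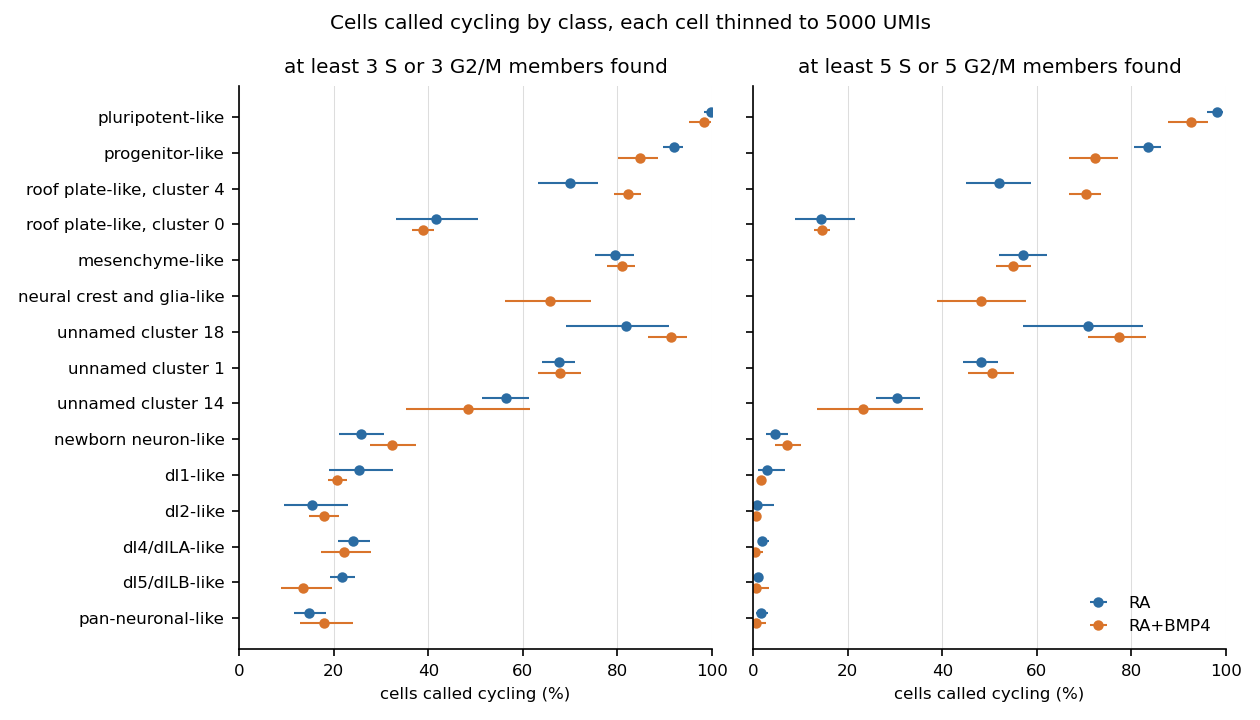
Percent of cells called cycling (horizontal axes) in each class at the limit of 3 members (left) and of 5 members (right), after thinning to 5000 UMIs, with 95% Clopper-Pearson intervals of counting error; the colors mark the RA and RA+BMP4 libraries. Among the classes drawn, pluripotent-like cells lie highest and the 5 neuron-like classes lowest in both libraries, and the neuron-like classes drop to under 3% at 5 members.

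The cycling share differed widely between classes. Pluripotent-like cells, which carry stem cell markers such as Pou5f1 and were the deepest in UMIs, had a cycling share at 5 members of 98.1% [96.0 to 99.3] in RA and 92.7% [87.8 to 96.1] in RA+BMP4. In progenitor-like cells it was 83.5% [80.6 to 86.2] and 72.2% [66.8 to 77.2]. Mesenchyme-like cells stood at 57.1% and 55.0%, cluster 1 at 48.1% and 50.4%, and cluster 18, led by the smooth muscle genes Tagln and Acta2, at 70.9% [57.1 to 82.4] and 77.4% [70.9 to 83.1]. Neural crest and glia-like cells, 115 in RA+BMP4 and 1 in RA, stood at 48.2% in RA+BMP4, and the 27 and 32 endoderm-like cells at 74.1% [53.7 to 88.9] and 84.4% [67.2 to 94.7]. In RA+BMP4, cluster 18 and endoderm-like cells thus stood above progenitor-like cells, with overlapping intervals. The intervals of the 2 libraries did not overlap in the progenitor-like class and overlapped only at their ends in the pluripotent-like class. Roof plate-like cells stood lower, at 37.6% [32.5 to 43.0] and 31.6% [29.7 to 33.5], with intervals that overlapped.

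The roof plate-like class held a mixture. In cluster 0, led by Pla2g7 and Rspo3, the share at 5 members was 14.4% [8.89 to 21.6] in RA and 14.6% [12.9 to 16.3] in RA+BMP4. In cluster 4 it was 51.9% [45.0 to 58.7] and 70.4% [66.9 to 73.6]. Cluster 4 was led by Wnt1, Fndc5 and Gdf10, but also by the mitotic gene Pimreg and by Fabp7, one of the progenitor markers. Only 1 roof plate marker was among its 10 leading genes, against 3 in cluster 0. Most RA roof plate-like cells lay in cluster 4 (219 of 351) and most RA+BMP4 cells in cluster 0 (1719 of 2489), so the class as a whole compares different clusters. The higher share of RA+BMP4 in cluster 4 was 82.3% against 69.9% at 3 members and 74.3% against 60.7% after thinning to 3000 UMIs, but without thinning it was 92.3% against 94.1%.

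At 5 members few cells of the neuron-like classes were cycling. That limit was added because neuron-like cells, presumed not to cycle, often passed 3 members, so their low shares at 5 depend in part on that presumption. Their higher shares at 3 members are given above. Among newborn neuron-like cells, 16 of 350 passed 5 members in RA (4.57% [2.64 to 7.32]) and 26 of 368 in RA+BMP4 (7.07% [4.67 to 10.2]). Over all neuron-like classes it was 35 of 2380 cells in RA (1.47% [1.03 to 2.04]) and 35 of 2899 in RA+BMP4 (1.21% [0.842 to 1.68]). By class the RA and RA+BMP4 shares were 2.94% and 1.72% in dI1-like cells and 0.813% and 0.515% in dI2-like cells. They were 1.91% and 0.383% in dI4/dILA-like cells, 0.988% and 0.592% in dI5/dILB-like cells, and 1.57% and 0.50% in pan-neuronal-like cells. No neuron-like class passed 3% in either library. Against progenitor-like and roof plate-like cells pooled, the cycling share of neuron-like cells was 0.0215 times as high in RA and 0.0334 times in RA+BMP4, and at 3 members 0.259 and 0.353 times.

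Of the few neuron-like cells that passed the limit of 5 members, 26 in RA and 19 in RA+BMP4 stood at exactly 5. On average these few held more progenitor marker UMIs than the other neuron-like cells, 3.17 in RA and 5.03 in RA+BMP4 per thinned cell against 0.940 and 1.36. Cycling progenitor-like cells averaged 43.6 and 23.8. The pan-neuronal markers of the few neuron-like cells that passed averaged 39.3 and 24.7 UMIs against 42.2 and 38.1 in the other neuron-like cells. The median doublet score of those that passed was 0.0363 and 0.0528 against 0.0320 and 0.0294. In newborn neuron-like cells the doublet score of cycling cells was 0.0675 and 0.0633 against 0.0352 and 0.0256. Cycling cells scored higher in other classes too. The scores were 0.0398 and 0.0514 against 0.0320 and 0.0346 in progenitor-like cells, and 0.0541 and 0.0501 against 0.0247 and 0.0406 in roof plate-like cells. The part of 2 cells in 1 droplet in these counts was not tested.

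Cluster 14, whose leading genes also include the Notch ligand Dll1, stood between progenitors and neurons. Cycling cells made up 30.4% [26.0 to 35.2] of its RA and 23.3% [13.4 to 36.0] of its RA+BMP4 cells at 5 members. Its summed G2 and M members reached 3758 and 4434 CPM (UMIs of a gene per 1000000 UMIs of the class), against 7213 and 7841 in progenitor-like cells and 511 and 837 in newborn neuron-like cells. At the same time its Cdkn1c level, 4308 CPM [4249 to 4367] in RA and 5467 [5275 to 5664] in RA+BMP4, was far above the 296 and 324 of progenitor-like cells.

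Levels of the members themselves were read from summed UMIs per class. The S members of newborn neuron-like cells stood at a median of 12% of their progenitor-like level in RA and 18.9% in RA+BMP4, and the G2 and M members at 6.16% and 9.02%. All 19 G2 and M members were at least 4-fold lower in both libraries, as were 16 S members in RA and 15 in RA+BMP4, where 5.90% and 4.37% of all genes tested were. In neuron-like cells the medians were 11.6% and 15% for S members and 2.84% and 3.21% for G2 and M members, with 19 of 19 G2 and M members and 16 (RA) and 15 (RA+BMP4) S members at least 4-fold lower against 7.07% and 5.77% of all genes. The median of all genes was near 0 on the log2 scale in newborn neuron-like cells, -0.06 and -0.01, and 0.13 and 0.15 in neuron-like cells. Sums over a class cannot tell fewer expressing cells from less RNA per cell.

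**Figure D2:**
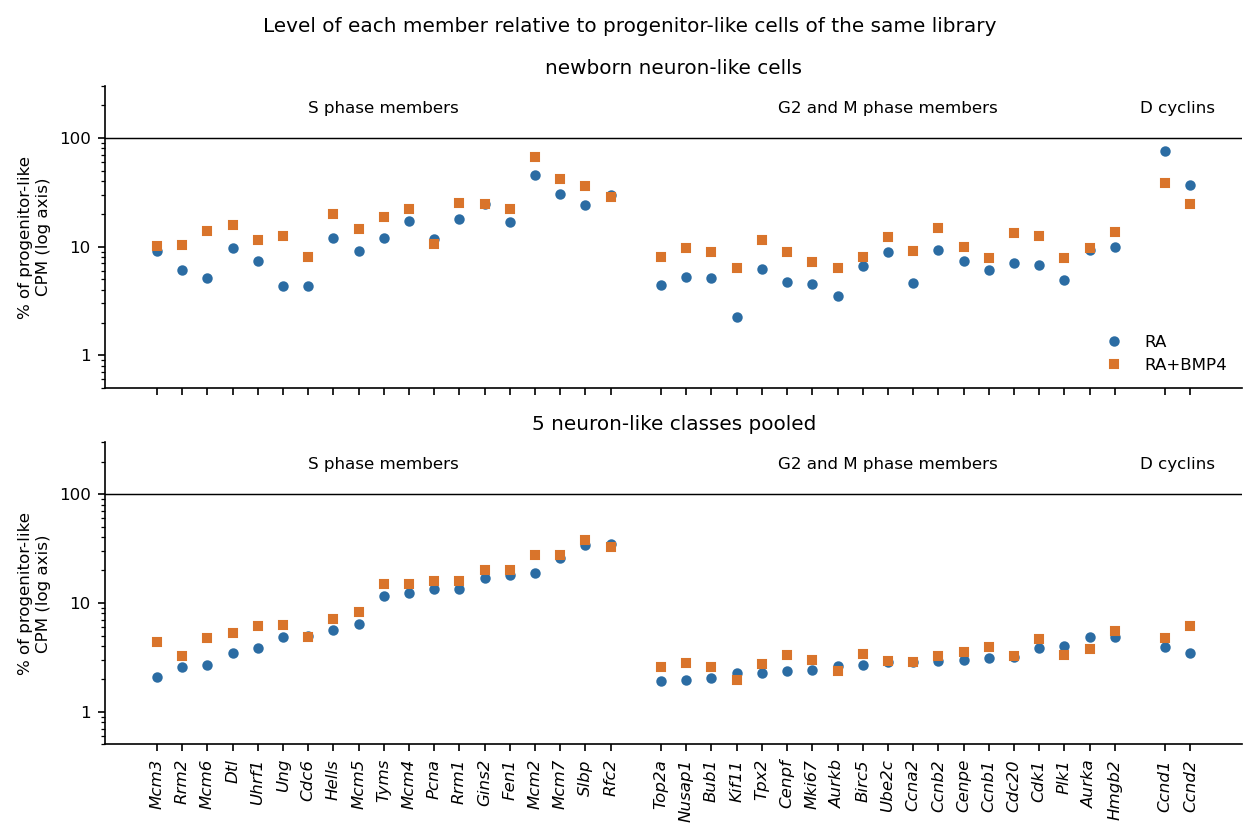
Level of each member in newborn neuron-like and in neuron-like cells as a percent of its level in progenitor-like cells, by list and library, on a log axis. In neuron-like cells the G2 and M members lie between 1.91% and 5.54%, and Slbp, Rfc2, Mcm7 and Mcm2 stand highest among the S members, while other S members such as Mcm3 lie as low as the G2 and M members.

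The lists did not empty evenly. Mitotic members were nearest to 0. Top2a stood at 4.48% and 8.07% of its progenitor level in newborn neuron-like cells and at 1.91% and 2.58% in neuron-like cells. Ccnb2, a B-type cyclin that activates Cdk1 at mitosis, stood at 9.35% and 14.9%, then at 2.90% and 3.25%. Kif11, the kinesin that pushes spindle poles apart, stood at 2.24% and 6.31%, then at 2.27% and 1.97%. In neurons these genes were nearly gone.

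Among S members the loss split. Mcm3, a helicase subunit, was at 135 CPM [129 to 141] in RA progenitor-like cells and 105 [95.5 to 116] in RA+BMP4, at 12.2 [9.31 to 15.6] and 10.6 [7.70 to 14.2] in newborn neuron-like cells, and at 2.84 [2.28 to 3.49] and 4.64 [3.89 to 5.48] in neuron-like cells. Rrm2, the regulated subunit of the enzyme that makes deoxynucleotides, stood at 342 and 325 CPM in progenitors, at 21.0 and 33.5 in newborn and at 8.87 and 10.5 in neuron-like cells. Both were nearly gone, as the mitotic genes were. Slbp, which binds histone messages, kept 53.9 CPM [51.3 to 56.5] and 52.2 [49.6 to 54.8] in neuron-like cells, against 159 and 136 in progenitors, or 33.9% and 38.3%. Rfc2, a subunit of the clamp loader, kept 34.8% and 32.8%, and Mcm7 25.8% and 27.6%. These 3 S members remained in neurons at 25.8% or more of the progenitor level in both libraries, and in cells that were cycling by neither list Slbp still stood at 54.4 and 54.3 CPM. Mcm7 overlaps the microRNA genes Mir25, Mir93 and Mir106b on its own strand, and Rfc2 overlaps Lat2 on the other strand.

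Mcm2 (chr6:88883474-88898780, minus strand, GENCODE vM21 on GRCm38), another helicase subunit, was unlike its partners. It stood at 67.9 CPM [63.5 to 72.5] in RA and 48.1 [41.6 to 55.3] in RA+BMP4 progenitor-like cells, and at 30.9 [26.3 to 36.2] and 32.3 [27.1 to 38.2] in newborn neuron-like cells, or 45.5% and 67.2% of the progenitor level. Within the dI1-like class, the Atoh1-led cluster 11 held 63.8 CPM [52.0 to 77.5] and 44.1 [38.3 to 50.4], as high as progenitors, whereas cluster 12 held 2.86 [0.346 to 10.3] and 6.66 [4.59 to 9.35]. Mcm3 in cluster 11 stood at 9.48 [5.30 to 15.6] and 11.4 [8.57 to 14.8]. Cluster 11 was therefore rich in Mcm2 and poor in Mcm3, and 3.74% and 2.96% of its cells were cycling at 5 members.

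The D cyclins differed from each other in some classes, among them the roof plate-like one. In RA the gap was widest in the 27 endoderm-like cells, at 4.75 CPM of Ccnd1 and 201 of Ccnd2. Ccnd1 lies at chr7:144929931-144939925 and Ccnd2 at chr6:127125162-127152193, both on the minus strand. Ccnd1 stood at 399 CPM [388 to 410] in RA and 412 [393 to 433] in RA+BMP4 progenitor-like cells, and at 299 [284 to 315] and 157 [146 to 170] in newborn neuron-like cells. It thus kept 75.0% and 38.2% of the progenitor level, and its level in cluster 14, 474 [455 to 494] and 422 [370 to 480], was as high as or higher than in progenitors. In neuron-like cells it was at 15.6 [14.2 to 17.0] and 19.8 [18.2 to 21.4], so Ccnd1 was present in newborn cells and nearly gone in neurons. Ccnd2 stood at 443 [432 to 454] and 360 [342 to 379] in progenitors, at 164 [153 to 176] and 89.4 [80.5 to 99.0] in newborn neuron-like cells, and at 15.5 [14.1 to 16.9] and 22.3 [20.6 to 24.0] in neuron-like cells.

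In roof plate-like cells Ccnd2 was kept and Ccnd1 was not. Ccnd1 was at 55.1 CPM [49.2 to 61.4] and 19.6 [18 to 21.3], or 13.8% and 4.76% of the progenitor level, while Ccnd2 was at 386 [370 to 402] and 316 [309 to 323], or 87.1% and 87.7%. The low Ccnd1 held in both clusters, with 73.4 and 31.7 CPM in cluster 4 and 21.6 and 12.9 in cluster 0. Cluster 1 showed the same order, with 64.8 and 47.5 CPM of Ccnd1 beside 531 and 446 of Ccnd2, and mesenchyme-like cells had 60.9 and 156 of Ccnd1 beside 345 and 247 of Ccnd2. Across the 33 class and library points, summed S and summed G2 and M members correlated at 0.963 (Pearson, log2 of CPM plus 5, points sharing libraries and depth). Ccnd1 followed the S members at 0.563 and Ccnd2 at 0.850. The genes most like Ccnd1 over these points were Lsm8 (0.887), Snrpa (0.855) and Gmps (0.853), and those most like Ccnd2 were Zfp36l1 (0.947), Magt1 (0.943) and Vwa5a (0.942).

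**Figure D3:**
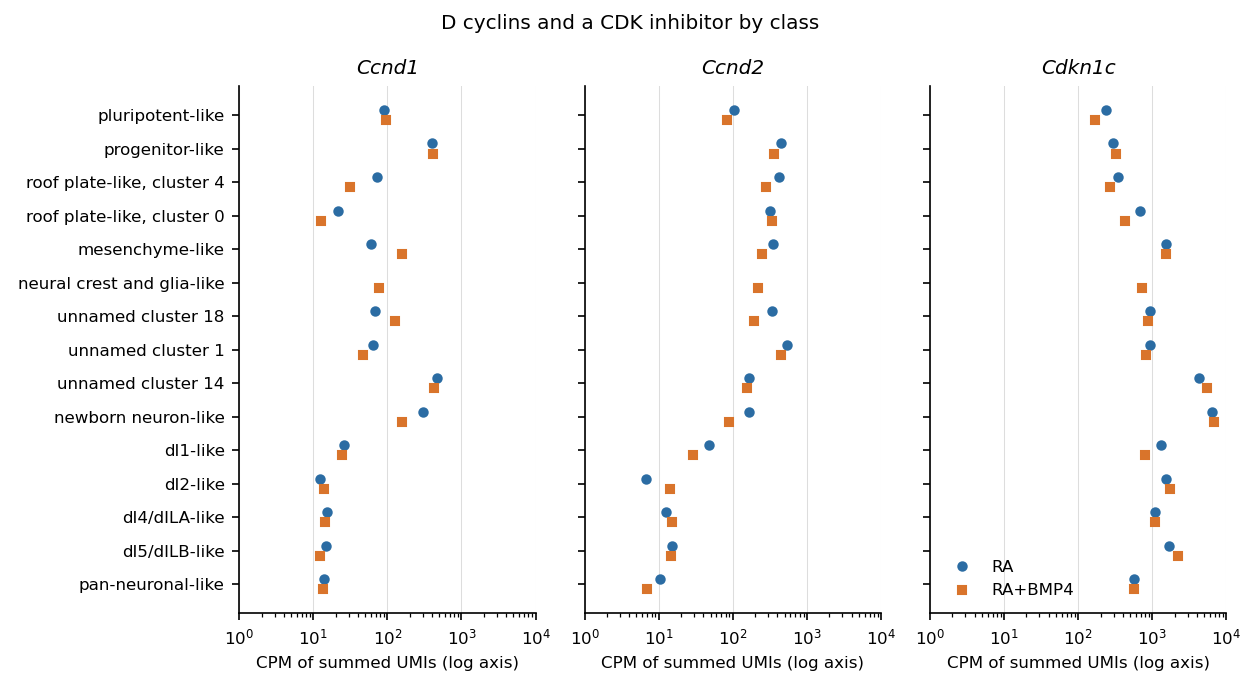
Levels of Ccnd1, Ccnd2 and Cdkn1c by class in CPM of summed UMIs, on log axes, with circles for RA and squares for RA+BMP4. Ccnd1 is high in progenitor-like cells, cluster 14 and newborn neuron-like cells and low in roof plate-like cells, where Ccnd2 stays high, and Cdkn1c is highest in newborn neuron-like cells.

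Genes known to act at the exit did not share 1 direction between progenitor-like and newborn neuron-like cells. Cdkn1c stood at 296 [287 to 305] and 324 [306 to 342] CPM in progenitors, at 6476 [6406 to 6547] and 6731 [6653 to 6811] in newborn neuron-like cells and at 1255 [1243 to 1268] and 1085 [1074 to 1097] in neuron-like cells. Gadd45g, a growth arrest gene, stood at 49.1 and 142 in progenitors and at 649 and 916 in newborn neuron-like cells. Btg2, an antiproliferative gene of newborn neurons, stood at 90.0 and 142, then at 480 and 633. Of 11 CDK inhibitors and exit genes, 5 were at least 2-fold higher in newborn neuron-like than in progenitor-like cells in each library. Of all genes tested, 10.3% and 9.64% were. Another 3 of the 11 were at least 2-fold lower, a count given without a share of all genes beside it. The higher ones were Cdkn1c, Cdkn1a, Gadd45a, Gadd45g and Btg2. The lower ones were the INK4 inhibitors Cdkn2c, at 4.97% and 5.64% of the progenitor level, Cdkn2a, at 28.7% and 18%, and Cdkn2b, at 40.9% and 29.3%. The kinase Cdk4 stood at 557 and 491 CPM in progenitors and at 650 and 602 in newborn neuron-like cells. Ccne1, the cyclin of the G1 to S step, stood at 75.6 and 71.2 and then at 4.99 and 7.95, and the mitotic factor Foxm1 at 38.1 and 36.2 and then at 0.998 and 2.41.

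The lists of other cycle genes differed in how far they were lower in neurons. In neuron-like cells 23 of 27 other replication genes were at least 4-fold lower than in progenitors in both libraries, with medians at 14.3% and 14.9% of the progenitor level, and 39 (RA) and 40 (RA+BMP4) of 44 other mitotic genes, with medians at 4.14% and 4.04%. Of 9 G1 to S genes 6 were, with medians at 10.1% and 18.6%. Of 17 E2F, Rb and MuvB genes only 7 and 5 were, with medians at 27.2% and 44.4%, far above those of the S and of the G2 and M members. The S members were most like Cenph, Atad2 and Chek1 over the classes (each 0.982) and the G2 and M members most like Knl1 (0.991) and Knstrn (0.989).

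The whole libraries differed less than the classes. The S members had a median log2 ratio, RA+BMP4 over RA, of -0.45, with 18 of 19 below a ratio of 1, and the G2 and M members of -0.26, with 19 of 19 below 1. Over all 7152 genes tested, the median was 0.07 and 37.0% lay below 1. No member was 2-fold apart, where 1.43% of all genes were. The largest S difference was in Ung, a uracil glycosylase, at 27.0 and 16.8 CPM (log2 ratio -0.68 [-0.77 to -0.60]). Gins2, a helicase partner, was at 50.5 and 51.6 (0.03 [-0.02 to 0.09]), and it was the only S member on the other side. Among G2 and M members Cdk1, the mitotic kinase, was the farthest at 119 and 82.5 CPM (-0.53 [-0.57 to -0.49]), and Birc5, the survivin of the chromosomal passenger complex, the nearest at 159 and 154 (-0.05 [-0.08 to -0.02]). By role, the helicase subunits Mcm2 to Mcm7 ran from -0.56 (Mcm3) to -0.16 (Mcm4), and the nucleotide enzymes stood at -0.41 (Tyms), -0.35 (Rrm2) and -0.30 (Rrm1). The polymerase clamp Pcna stood at -0.59, its loader subunit Rfc2 at -0.05, the flap nuclease Fen1 at -0.39 and the histone message binder Slbp at -0.07. Chromatin proteins Hells and Uhrf1, which act in the upkeep of DNA methylation, stood at -0.58 and -0.55, and the origin regulators Cdc6 and Dtl both at -0.48. S members thus differed among themselves far more than their intervals. Of the cyclins of G2 and M, Ccnb1 stood at -0.41, Ccna2 at -0.28 and Ccnb2 at -0.11, and of the kinases Bub1 at -0.30, Plk1 at -0.29, Aurka at -0.26 and Aurkb at -0.09. The anaphase genes Cdc20 and Ube2c stood at -0.34 and -0.30. Spindle and kinetochore genes lay close together, with Kif11 at -0.27, Tpx2 at -0.26, Nusap1 at -0.22, Cenpe at -0.20 and Cenpf at -0.17, as did the chromatin genes Mki67 at -0.21, Top2a at -0.19 and Hmgb2 at -0.18. The D cyclins stood at 123 and 73.2 CPM for Ccnd1 (-0.75 [-0.79 to -0.71]) and at 232 and 195 for Ccnd2 (-0.25 [-0.28 to -0.23]).

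**Figure D4:**
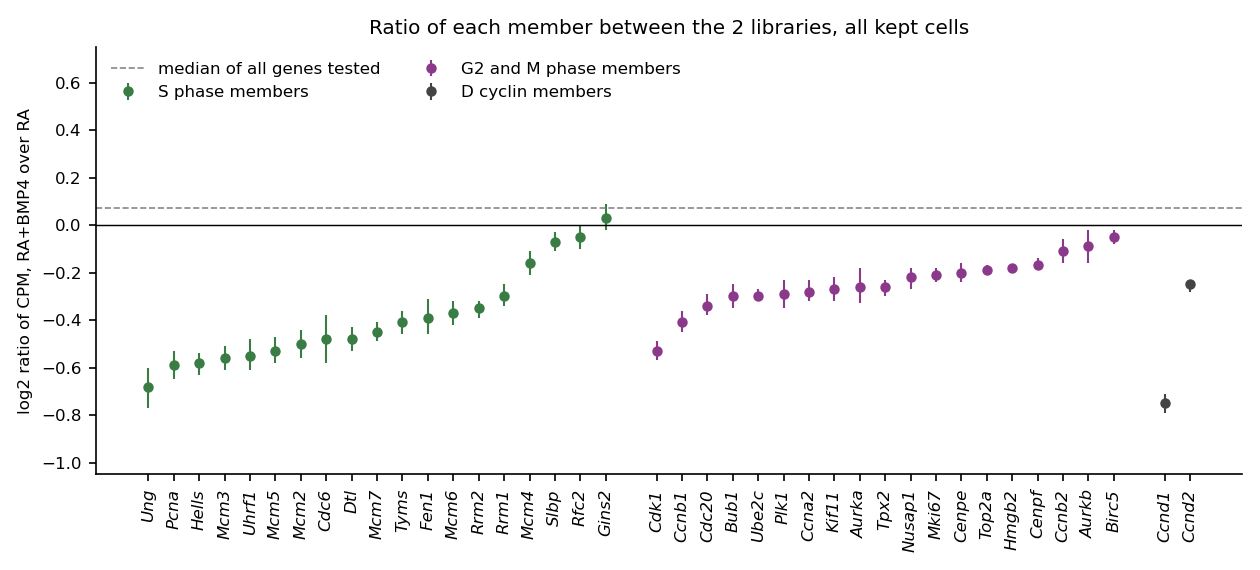
Log2 ratio of each member, RA+BMP4 over RA, from UMIs summed over all kept cells, with 95% counting intervals, by list. All S members but Gins2 and all G2 and M members lie below 0, from -0.68 for Ung to 0.03 for Gins2.

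The differences were smaller without the pluripotent-like cells, which made up 326 of the RA and 179 of the RA+BMP4 cells. Without them, the median was -0.29 for S members and -0.10 for G2 and M members. In the whole libraries the other cycle lists lay on the same side: 25 of 27 other replication genes (median -0.25) and 43 of 44 other mitotic genes (-0.24) were below 1. Among E2F, Rb and MuvB factors, Mybl2, the B-Myb factor, was at 38.3 and 17.0 CPM (-1.17) and so the only one 2-fold lower, where 0.601% of all genes were, a gene whose level in pluripotent-like cells, 184 and 158 CPM, was far above that in progenitors, 22.0 and 20.2. The CDK inhibitors and exit genes had a median of 0.07, that of all genes, and ran both ways, with Cdkn1a (p21) at 0.35 and Cdkn2a at -0.87.

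Within the progenitor-like class the lists lay on opposite sides of 1. S members had a median of -0.32 with 18 of 19 below a ratio of 1, and G2 and M members of 0.14 with 18 of 19 above 1, while all genes had a median of 0.03 and 45.1% lay below 1. Ung was at -0.87 [-1.25 to -0.50] and Tyms, the thymidylate synthase, at -0.71 [-0.88 to -0.53]. On the other side stood the mitotic kinases Aurka at 0.54 [0.33 to 0.75] and Aurkb at 0.35 [0.18 to 0.52], and Cdk1 alone of its list was below, at -0.49. Within roof plate-like cells the medians were -0.36 for S members (18 below 1) and -0.09 for G2 and M members (12 below), against 0.07 for all genes and 38.5% below 1. These medians compare mostly cluster 4 of RA with mostly cluster 0 of RA+BMP4. Inside the clusters the summed members were not lower in RA+BMP4: S members summed to 1543 CPM in RA and 1797 in RA+BMP4 in cluster 4 and to 472 and 480 in cluster 0, and G2 and M members to 5080 and 7270 in cluster 4 and to 1767 and 1857 in cluster 0. Ccnd1 was 2-fold lower there, at -1.49 [-1.69 to -1.29], where 0.158% of all genes were, and its levels given above were lower in RA+BMP4 in both clusters.

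Newborn neuron-like cells of RA+BMP4 held more mitotic message than those of RA. All 19 G2 and M members were above a ratio of 1, with a median of 0.94 against 0.09 for all genes, of which 36.0% lay below 1. Top2a stood at 46.1 CPM in RA and 92.8 in RA+BMP4 (1.01) and Cenpf at 31.7 and 64.1 (1.01 [0.73 to 1.31]). Kif11 was at 1.57 [0.67 to 2.55] from 15 and 37 UMIs, and Ccna2, the cyclin of S and G2, at 1.10 [0.51 to 1.70] from 39 and 69. The D cyclins were lower there, Ccnd1 at -0.93 [-1.06 to -0.79] and Ccnd2 at -0.88 [-1.06 to -0.70]. The cycling cells among newborn neuron-like cells, 16 and 26 at 5 members, carried higher doublet scores than the rest, as given above. Cycling progenitor-like and roof plate-like cells did so too. The part of these newborn neuron-like cycling cells in this difference was not tested. Mesenchyme-like cells went the other way in G2 and M members, with a median of -0.31 and 18 of 19 below 1, against 43.5% of all genes.

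The phases of cycling cells were read at 5 members, by whether a cell passed for S members only, for both lists or for G2 and M members only. Over all cells the split was 23.0%, 56.7% and 20.3% in RA and 25.1%, 46.6% and 28.3% in RA+BMP4. Pluripotent-like cells passed for both in 94.3% and 88.5%. Progenitor-like cells passed for both in 60.0% and 63.3%, with S only at 20.9% and 14.2% and G2 and M only at 19.1% and 22.5%. Roof plate-like cells were split more evenly, with 29.8%, 37.4% and 32.8% in RA and 21.3%, 37.8% and 40.9% in RA+BMP4. Cluster 0 of that class had few cells that passed for both, 5.26% (of 19 RA cells) and 14.7%, against 42.9% and 48.7% in cluster 4. S only exceeded G2 and M only in mesenchyme-like cells, 34.7% and 43.3% against 21.1% and 19.8%, and the order was the opposite in roof plate-like cells of both libraries. Cells in neuron-like classes that were cycling, 35 in each library, passed for both in 0% and 17.1%.

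Depth differed between cycling and other cells. Among progenitor-like cells, those cycling had a median of 17756 RA and 12770 RA+BMP4 UMIs against 12447 and 8768 for those cycling by neither list, and among roof plate-like cells 19028 and 13125 against 13428 and 9902. Among neuron-like cells the medians were 11537 and 9947 against 12438 and 9546. Each cell was thinned to the same depth before the phases were read.

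**Figure D5:**
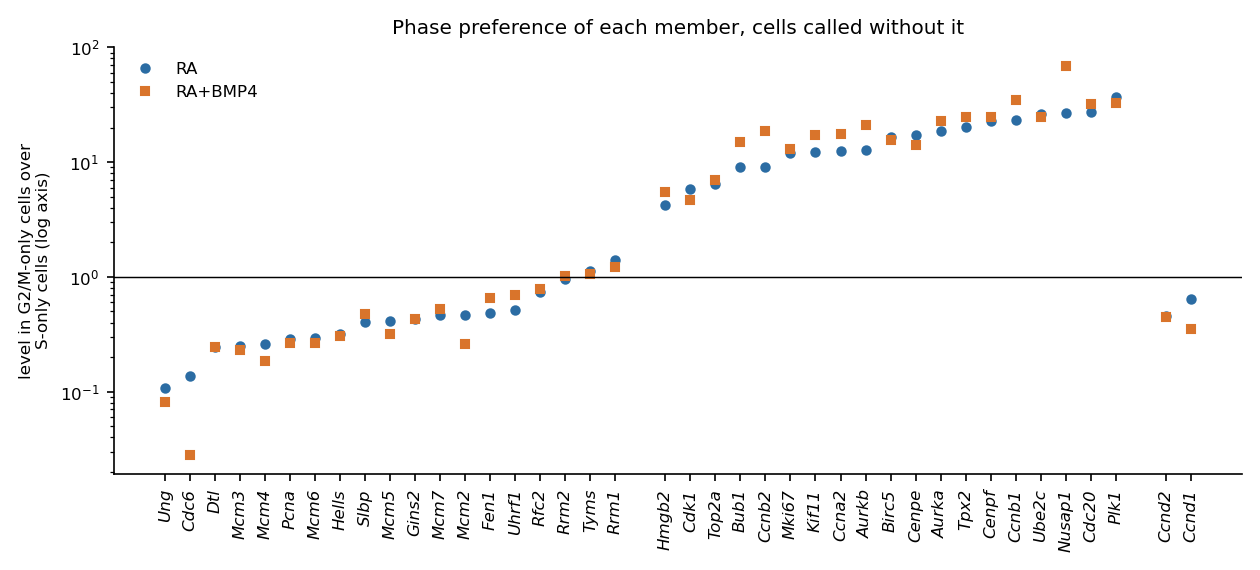
Ratio of each member's level in cells that passed for G2 and M members only over that in cells that passed for S members only, by list and library, on a log axis, with each gene left out of the call it is plotted on. All G2 and M members lie above 1 and all S members below it except Rrm2, Tyms and Rrm1, which lie near 1, and both D cyclins lie below 1.

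The members' own phase preference, with the gene in question left out of the call, separated the lists with 3 exceptions. Plk1, a kinase that drives entry into mitosis, was 36.7 and 32.5 times as high in G2 and M only cells as in S only cells, Cdc20 27.3 and 32.2 times, Nusap1 26.9 and 68.2 times, and Ccnb1 23.1 and 34.7 times. Cdk1, 5.81 and 4.67 times, Hmgb2, 4.25 and 5.49 times, and Top2a, 6.49 and 6.94 times, were less confined to G2 and M. Ung, 0.107 and 0.0808 times, Cdc6, which loads the helicase onto origins, 0.137 and 0.0281 times, and Mcm4, 0.260 and 0.185 times, were low in G2 and M only cells. Rrm2 (0.968 and 1.02), Tyms (1.13 and 1.05) and Rrm1 (1.40 and 1.21) lay near 1 although they belong to the S list. Ccnd2 was 0.453 and 0.445 times as high in G2 and M only cells, and Ccnd1 0.642 and 0.355 times. No intervals are given for these ratios, and the extreme ones rest on low levels. In RA+BMP4, Nusap1 stood at 3.07 CPM in S only cells and Cdc6 at 1.36 CPM in G2 and M only cells. Differences between the libraries in such ratios are therefore not read.

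Pluripotent-like cells had the highest cycling share beside low D cyclins. Ccnd1 stood at 90.3 and 95.9 CPM, 22.6% and 23.3% of the progenitor level, and Ccnd2 at 104 and 82.6 CPM, 23.4% and 22.9% of it. Their S members stood at a median of 116% and 133% of the progenitor level and G2 and M members at 90.8% and 87.7%. At least 2-fold higher than in progenitors were 2 of 19 S members in RA and 3 of 19 in RA+BMP4. Of all genes tested, 10.3% and 9.85% were, so these counts were little above what all genes showed. Ung, at 307% and 554%, and Hells, a chromatin remodeler, at 222% and 262%, were among them. Between the libraries this class differed little, with S and G2 and M medians of -0.05 and -0.02.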

How the data were processed

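The authors deposited raw UMI counts per gene and barcode for 1 library of each condition. Per the submitters' processing notes, the tools were CASAVA and Cell Ranger 3.0.2 with GRCm38 as the build, and the annotation release is not given in the sources used here. Barcodes with fewer than 1000 genes or more than 10% mitochondrial UMIs were dropped. Scrublet in scanpy 1.11.5, at an expected rate of 8%, called 138 RA and 298 RA+BMP4 doublets (2.29% and 3.45%), which were removed.

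Both libraries were clustered together (3000 variable genes, 30 principal components, 20 neighbours, Leiden at resolution 1, leidenalg 0.10.2). Left out were 482 listed, marker, histone, mitochondrial and ribosomal genes and 1760 phase-correlated genes. The latter correlated at 0.08 or more, in either direction, with the mean level of G2 and M members minus that of S members. Only cells with at least 6 members of a list entered this correlation. The limit of 0.08 and the rule that names clusters from their 10 leading genes and at least 3 markers were set after the clusters were seen. The members, lists and markers were chosen with earlier results of these data known.

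Each cell was thinned to 5000 UMIs without replacement. Shares carry Clopper-Pearson intervals, levels (CPM of UMIs summed over cells) Poisson intervals, and ratios exact conditional binomial intervals. The genes tested beside the members had at least 20 CPM in 1 of the 2 groups compared. Ratios used a floor of 3 counts. Leading genes and correlations had 5 CPM added. With 1 library per condition, no test was run. Steps were tested on simulated data. Named genes are the 40 members, genes of the fixed lists, and the 5 genes most like a member sum or a D cyclin. Alternatives covered scaling (edgeR 4.0.16 for TMM), cell filters, doublets, thinning, member limits, scanpy's phase call and clustering.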

Additional observations from a re-analysis of the deposited data

Results flagged for a closer look

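The cycling share at 5 members differed between the libraries in opposite directions in 2 groups of cells whose intervals do not overlap. In progenitor-like cells it was 11.3 percentage points lower in RA+BMP4 (-11.3), at 72.2% [66.8 to 77.2] against 83.5% [80.6 to 86.2]. In roof plate-like cluster 4 it was 18.5 percentage points higher in RA+BMP4, at 70.4% [66.9 to 73.6] against 51.9% [45.0 to 58.7]. The leading genes of cluster 4 include the mitotic gene Pimreg and the progenitor marker Fabp7, and the part of phase in forming that cluster was not tested. With 1 library per condition, the difference between these groups was not tested.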

How the results depend on the processing

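No paired analysis was possible because each condition had 1 library. The scaling, cell filter and class makeup moved the members' medians without changing their sign. The S median of -0.45 became -0.51 with TMM factors, -0.52 with median-of-ratios size factors, -0.76 with the strict filter (2000 genes, 5% mitochondrial UMIs), -0.29 without pluripotent-like cells and -0.57 without unnamed clusters. The G2 and M median of -0.26 became -0.33 with median-of-ratios size factors, -0.64 with the strict filter and -0.10 without pluripotent-like cells. The strict filter kept 1247 RA and 5895 RA+BMP4 cells.

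The ratio of cycling shares, 0.919, became 0.981 at 2 members, 0.826 at 5, 0.859 at 3000 UMIs, 1.03 at 10000, 0.858 without thinning, 0.828 with the scanpy phase call and 0.738 with the strict filter. At the RA makeup, 0.943 became 1.00 at 2 members, 0.991 at 10000 UMIs, 0.863 without thinning, 0.899 with scanpy, 0.879 with the strict filter and 0.823 with each library clustered alone. The share of neuron-like over progenitor-like and roof plate-like cells, 0.259 in RA and 0.353 in RA+BMP4, became 0.608 and 0.674 at 2 members, 0.0215 and 0.0334 at 5, 0.0959 and 0.168 at 3000 UMIs, 0.592 and 0.635 at 10000, 0.735 and 0.679 without thinning, 0.139 and 0.149 with scanpy, and 0.313 and 0.451 with cell cycle genes in the clustering. In RA it was also 0.294 with the strict filter, 0.290 at resolution 1.5 and 0.338 at a phase correlation of 0.15, a setting chosen after seeing the data, as was leaving out unnamed clusters.

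The G2 and M part of cycling cells, 67.0% in RA and 64.7% in RA+BMP4, became 77.0% and 74.9% at 5 members, 74.7% and 71.7% at 3000 UMIs, 63.9% and 67.0% at 10000, 39.7% and 42.6% with scanpy, and 77.9% and 66.7% with the strict filter. In RA+BMP4 it was 68.6% at 2 members and 67.0% without thinning. Of the other summary values recomputed, 52 moved by less than their counting interval. Of the values for single genes and classes, 353 moved beyond it and 242 did not. The cause was not tested. Deeper cells reach a member limit more often, so shares of cells are comparable only at 1 thinned depth.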
